A study of Drosophila melanogaster with 18 samples.

Results

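The control samples of this series are wing imaginal discs dissected by hand from wandering third-instar Drosophila melanogaster larvae, and they are described here alone. All libraries whose title names the control genotype were taken, which gave 6 of the 18 libraries of the series: numbers 1, 2 and 3, each with a library a and a library b. The genotype was ubxflp:FRT82B clones in a Minute background, collected on day 5, although the sample descriptions read d5.d6. The remaining libraries come from discs with wts mutant clones and were not used. By this genotype the control discs are mosaics. The FLP recombinase is driven by Ubx sequences and recombines chromosome arm 3R. Cells that keep the Minute mutation, which as a class lowers ribosome production and slows growth, can share the disc with cells that have lost it. How many Minute cells remained was not measured. The counts give the whole disc and do not separate those cells. The labels do not say what the numbers stand for, how many discs were pooled, or which sex the larvae were, so every p-value below measures only the spread between these libraries.

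The wing disc is an epithelial sac set aside in the embryo that grows through larval life. Its pouch forms the wing blade, its hinge the wing base and its notum the dorsal thorax, while a thin peripodial layer covers it, and myoblasts and a tracheal branch adhere to the notum. Pulses of the steroid hormone ecdysone at the end of larval life switch it from growth to eversion and cuticle formation.

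Libraries held 8981262 to 11193858 counts on 17373 genes. Libraries a and b of a number differed by little more than counting noise (chi-square over its degrees of freedom of 1.01 to 1.06) and were summed into 3 replicates of 20990393, 22263073 and 18063124 counts. Between replicates the same ratio was 35.2 to 58.9, and log2 CPM (CPM, counts per 1000000 counts of the library) correlated across genes at 0.972 to 0.983. Of all genes, 10358 had a count in every replicate and 4367 had none in any. Each of the 11 disc epithelium markers was present, among them 259, 270.0 and 222 CPM of vg, 306, 272 and 309 CPM of nub and 671, 712 and 753 CPM of shg, which encodes E-cadherin (values throughout are in the order replicate 1, 2 and 3).

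Protein synthesis dominated the control disc. Genes for cytoplasmic ribosomal proteins held 11.01% ± 0.701 of all counts (SD, n = 3) and 25.5% ± 1.38 once counts were divided by exon length, since these genes are short. Of the 88 in the table, 61 had a mean of at least 1000 CPM, and RpL3 led by CPM at 3064, 3102 and 2496 CPM. Per kilobase of exons RpL41, which encodes a very short basic peptide, led at 8349.9 CPM per kb. Translation factors held a further 4.42% ± 0.0993 of counts. Ef1alpha48D, which delivers aminoacyl-tRNA to the ribosome, had 15748, 16422 and 15187 CPM and was the highest protein-coding gene by CPM in the mean. EF2, the translocation factor, followed among them with 6058, 5995 and 5592 CPM, and pAbp, the poly(A)-binding protein, with 3352, 3663 and 3220.0 CPM. The replicates of these genes lay close together, with replicate 3 slightly the lowest of each.

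Mitochondrial transcripts came next, at 4.75% ± 0.328 of counts for genes of the mitochondrial genome. The large ribosomal RNA mt:lrRNA was the highest of all genes, at 33622, 35707 and 30326 CPM, and the cytochrome oxidase subunit mt:CoI had 4966, 5398 and 4644 CPM. The small ribosomal RNA mt:srRNA had only 4.88, 8.43 and 3.83 CPM, and 21 of the 37 mitochondrial genome genes in the table had no count. Subunits of the respiratory chain that are encoded in the nucleus held 0.748% ± 0.000920 of counts, led by the ATP synthase genes ATPsynC at 1502, 1593 and 1498 CPM and ATPsynbeta at 1280.0, 1281 and 1272 CPM. Glycolytic genes held 0.383% ± 0.0187 of counts, with Gapdh2 at 787, 747 and 653 CPM and ImpL3, the lactate dehydrogenase gene, at 11.4, 18.6 and 16.2 CPM.

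Structural and chaperone genes formed the next group. Actin and tubulin genes with their partners held 2.88% ± 0.145 of counts, with Act5C at 7177, 6730.1 and 7907 CPM and alphaTub84B at 4672, 4102 and 4518 CPM. Constitutive chaperones held 2.30% ± 0.304, with Hsc70-4, the cytosolic Hsp70 cognate, at 6443, 6104 and 4806 CPM. Splicing and RNA-binding factors held 2.09% ± 0.0896, led by the hnRNP gene sqd at 2074, 2502 and 2481 CPM. Epithelial junction and polarity genes held 1.43% ± 0.0514. Among them the beta-catenin gene arm had 1103, 1091 and 1195 CPM, the Par-3 homologue baz had 1069, 1282 and 1003 CPM, and crb, the apical determinant, had 461, 494 and 504 CPM. Laminins led the basement membrane list: LanA had 947, 1007 and 988 CPM, against 94.3, 106 and 73.1 CPM for the collagen IV gene vkg, which in larvae is made largely by the fat body; per kilobase of exons the mean was 83.9 for LanA and 14.02 for vkg.

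Proliferation genes were present throughout. DNA replication genes held 0.430% ± 0.0179 of counts and mitosis genes 0.794% ± 0.00721. The replication clamp PCNA had 272, 292 and 260.0 CPM, the ribonucleotide reductase subunit RnrL had 287, 306 and 265 CPM, and the origin licensing helicase subunit Mcm2 had 181, 178 and 166 CPM. In mitosis, the kinase gene polo had 462, 474 and 459 CPM, CycB had 459.7, 462 and 443 CPM and the Cdc25 phosphatase gene stg had 235, 218 and 258 CPM. None of the 40 replication and 49 mitosis genes tested differed between replicates by the rule given below. That rule was met by 11.9% of all genes tested but by 3.47% of those of at least 10 CPM, where nearly all of these genes lie, so 0 calls is near the background. Chromatin genes held 1.52% ± 0.0559, led by Df31 at 3740.5, 4274 and 4009 CPM and HmgD at 1801, 2068 and 2049 CPM, and the replacement histone gene His2Av had 670.4, 809.5 and 699 CPM. Of the 111 core replication-dependent histone genes, 109 had 0 counts in every control library. Those genes are near-identical copies whose mRNAs lack a poly(A) tail, and what set their counts was not tested.

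**Figure D1:**
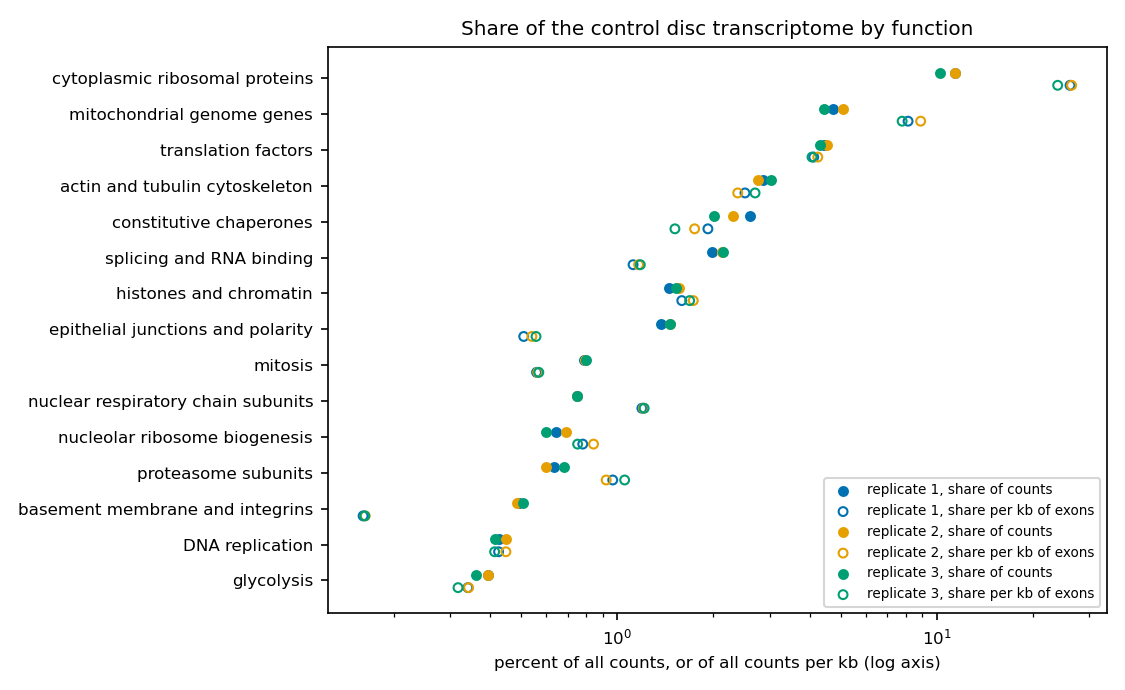
Share of the control disc transcriptome taken by 15 lists of genes, on a log axis in percent. Filled points give the share of all counts and open points the share of counts per kilobase of exons, coloured by replicate; cytoplasmic ribosomal proteins lead on both scales, at 11.01% and 25.5% in the mean.

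The counts were spread over many genes. The 10 highest genes held 9.30%, 9.43% and 8.54% of counts in replicates 1, 2 and 3, the 100 highest held 26.2%, 26.0% and 24.5%, and 468, 464 and 494 genes were needed to reach 50%. By mean CPM, 141 genes were at 1000 or more, 2192 at 100 or more and 6251 at 10 or more. The 20 highest by CPM also held genes outside the groups above. They were CG43164 at 3699, 4095 and 2883 CPM, CG3800 at 3096, 3446 and 3450.4 CPM, and the noncoding CR42862 at 2891, 2932 and 3529 CPM. Only 9 of the 20 highest genes by CPM were among the 20 highest per kilobase. Those per kilobase were led by mt:lrRNA at 25089 CPM per kb, RpL41, Ef1alpha48D at 6407 and mt:CoIII at 4474.

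Regional genes of the wing disc were all detected. The Yorkie and Vestigial partner sd led the 20 pouch genes with 595, 674 and 608 CPM. The Notch ligand gene Ser had 413, 390.0 and 505 CPM, rn had 281, 309 and 266 CPM, and salm, a target of Dpp signalling, had 183, 193 and 225 CPM. None of the 20 pouch genes differed between replicates by the rule given below, which is near the 3.47% of all genes at their level, at least 10 CPM. In the hinge, zfh2 had 749, 954 and 949.6 CPM and hth, which encodes the Extradenticle partner, had 804, 722 and 783 CPM. In the notum, the Iroquois gene caup had 155, 138 and 161 CPM, mirr had 141, 124 and 154 CPM and ara had 107, 97.8 and 120.1 CPM. The notum factor gene eyg had 47.6, 44.6 and 44.5 CPM and the GATA factor gene pnr had 44.3, 37.98 and 43.00 CPM. The dorsal selector ap had 449, 495 and 448 CPM. The widest ratio of highest to lowest replicate among these named genes was 1.296, for Ser.

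The named morphogen genes were lower per kilobase of exons than the named genes that receive or transmit their signals. The ligand genes had 95.6, 98.4 and 107 CPM for dpp, 103, 73.2 and 102 CPM for wg and 78.7, 66.2 and 74.6 CPM for hh. The receptor gene fz2 had 777, 752 and 747 CPM, the Hedgehog receptor gene ptc 232, 218 and 194 CPM, the Hedgehog effector gene ci 665, 743 and 818 CPM and Dad, an inhibitor induced by Dpp, 221, 206 and 183 CPM. Per kilobase of exons the means were 19.2 for dpp, 31.8 for wg and 30.9 for hh, against 102 for fz2, 38.9 for ptc, 131 for ci and 52.01 for Dad. Among genes that Yorkie, the Hippo pathway effector, is known to activate, ex had 803, 936 and 873 CPM, Diap1, the inhibitor of apoptosis, 349.9, 309.5 and 332 CPM and fj 276, 297 and 342 CPM, while upd3 had 2.59, 2.31 and 2.08 CPM.

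Transcription factors held 3.59% ± 0.0586 of counts (320 genes, n = 3). Of these, 94 had a mean of at least 100 CPM, 209 of at least 10 CPM and 71 of less than 1 CPM, and 18 had no count. The 25 highest held 46.9% of all transcription factor CPM and the 10 highest 26.37%. Zinc finger factors together held 27.6% of transcription factor CPM from 71 genes, BTB factors 14.8% from 13, homeodomain factors 13.6% from 70 and bHLH factors 9.35% from 47. The BTB share rested on few genes, which included br, psq, lola, mod(mdg4) and fru.

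The ecdysone-induced factor br, which marks the late larval stage and lies on chromosome X at 1575132 to 1664869 (BDGP6), was the highest transcription factor by CPM, at 2082, 2074 and 2541 CPM. It was followed by crol, a zinc finger factor of the ecdysone hierarchy, at 1054, 1177 and 1105 CPM, and by crc, the Drosophila ATF4, at 970.2, 1022 and 986 CPM. The next 7 were zfh2, psq, hth, ci, Xrp1, sd and Dsp1, the last with 592, 616 and 617 CPM. Xrp1, a bZIP factor known to rise in Minute cells, had 693, 921 and 547 CPM. It was highest in replicate 2 and lowest in replicate 3.

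Length changed this order. Per kilobase of exons crc led at 290.0 ± 7.76 CPM per kb, and emc, the bHLH inhibitor, was next at 250.4 ± 57.4. These were followed by crol at 149.8 ± 8.35, Xrp1 at 149 ± 39.04 and bowl at 135 ± 10.3. The br gene, with exons that together span 20.2 kb, ranked 11 at 111 ± 13.2. The intervals of crc and emc overlapped, and so did those of crol, Xrp1, bowl and ci. The order within each of these groups is not separated by these SD intervals, although crol was above ci in every replicate. Of the 25 highest by CPM, 15 were also among the 25 highest per kilobase. Dp, Xbp1 and Myb entered the list only per kilobase, at 120.1, 119 and 93.5.

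**Figure D2:**
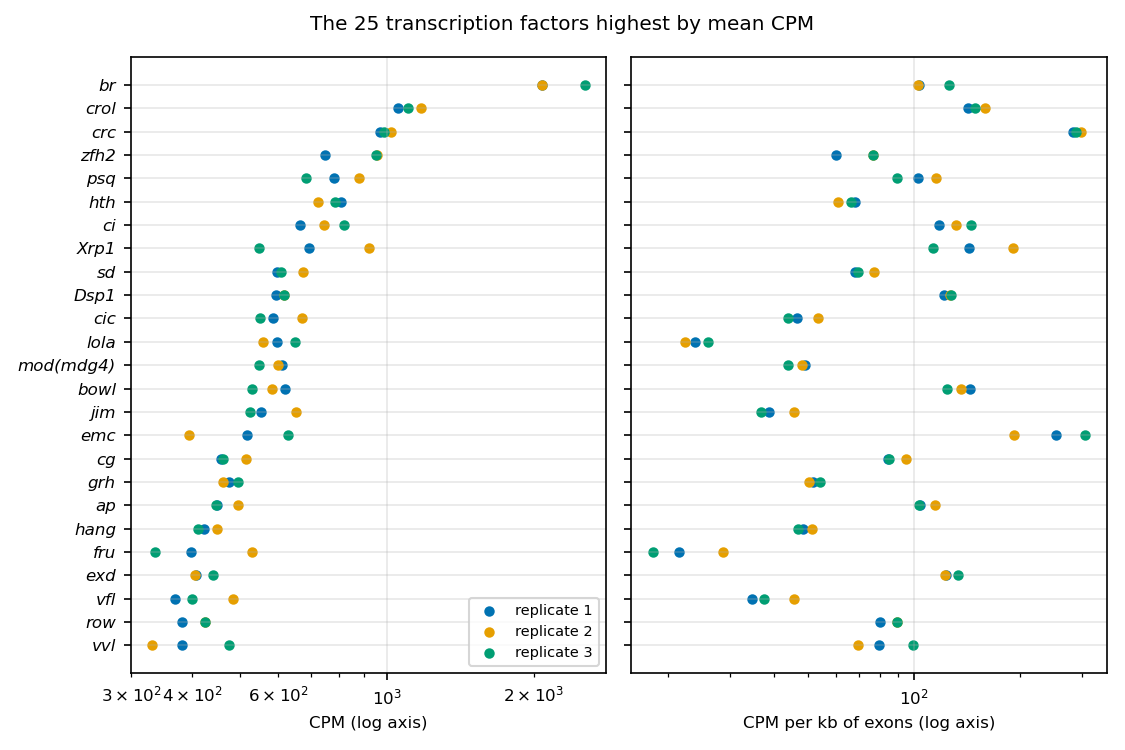
The 25 transcription factors highest by mean CPM, with CPM on the left and CPM per kilobase of exons on the right (log axes) and 1 point per control replicate. The 3 points of a factor lie within 1.68-fold of each other, and crc and emc stand furthest right per kilobase.

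None of these 25 factors differed between replicates by the rule that follows, and 24, 23 and 24 of them were among the 25 highest of replicates 1, 2 and 3 taken singly. A gene was said to differ when the edgeR quasi-likelihood F-test of replicate number gave a Benjamini-Hochberg adjusted p under 0.05 and the highest replicate was at least 2 times the lowest. The error of this test is the spread between libraries a and b alone, so it compares 3 samples of 1 group and says nothing of a condition. By the adjusted p alone, 62.6% of the 8335 genes tested passed, among them crc at an adjusted p of 3.38e-05 (edgeR) with a ratio of 1.05. With both criteria 993 genes differed, which is 11.9%.

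The median gene had a ratio of highest to lowest replicate of 1.19 and a coefficient of variation of 9.04%, and 52.4% of genes had a ratio of at most 1.2. Spread was widest at low levels. Of genes under 1 CPM 59.8% differed, of those from 1 to 10 CPM 32.6%, and of those of at least 10 CPM 3.47% (217 of 6251). The steadiest genes of at least 10 CPM included Tap42, a regulator of protein phosphatase 2A, at 70.3, 70.4 and 70.2 CPM, the RNA polymerase II subunit gene Rpb11 at 42.8, 42.97 and 42.8 CPM and the mitochondrial peroxidase gene Prx3 at 69.1, 69.2 and 68.9 CPM. None of the 83 ribosomal protein genes tested differed, and none of the nucleolar, proteasome, respiratory chain, splicing, glycolysis or junction genes tested did, on lists whose genes are mostly at 10 CPM or more, where few genes differ. The genes that differed were highest in replicate 1 in 2.46% of all genes tested, in replicate 2 in 4.79% and in replicate 3 in 4.67%. They were lowest in replicate 1 in 3.28%, in replicate 2 in 3.55% and in replicate 3 in 5.09%.

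**Figure D3:**
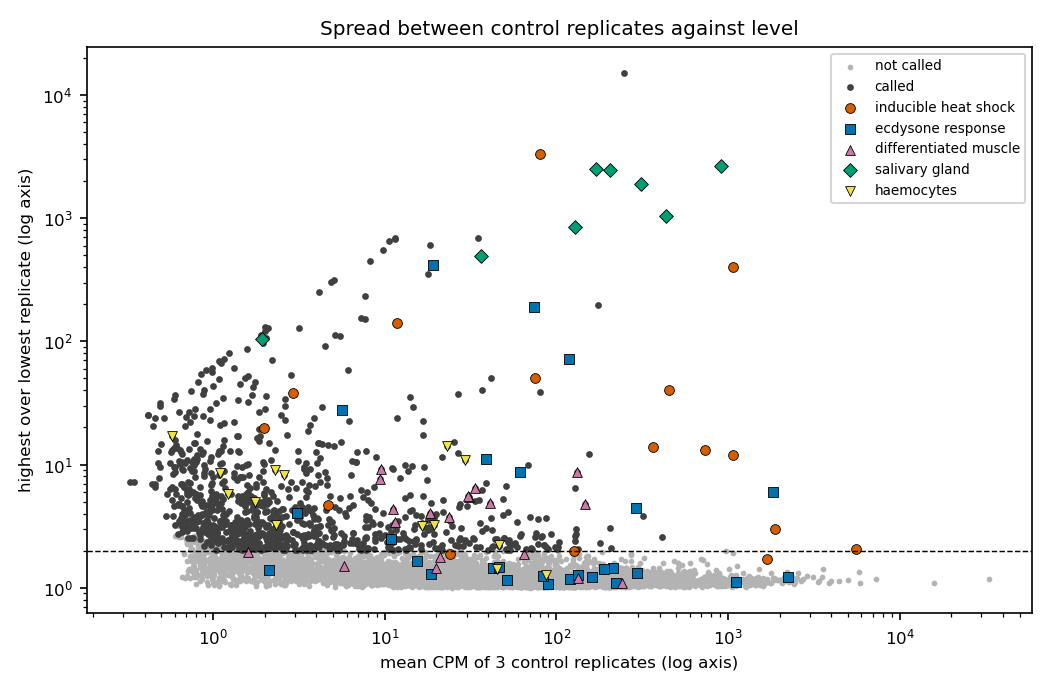
Ratio of the highest to the lowest control replicate against mean CPM for the 8335 genes tested (log axes), with members of 5 lists marked; the dashed line is a ratio of 2. Most genes lie under the line above 10 CPM, where 3.47% differed, while some heat shock, ecdysone and salivary gland genes above 10 CPM reach ratios above 100.

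Heat shock genes were mostly highest in replicate 1. The list has 19 genes, of which 16 were tested and 14 differed, 13 of them in the order replicate 1 over 2 over 3, with a median ratio of 13.5 against 1.19 for all genes. All 14 were lowest in replicate 3, where 5.09% of all genes tested differed and were lowest. The inducible Hsp70 relative Hsp68 (chromosome 3R, 24055080 to 24057310) had 2569.9, 624 and 6.401 CPM. The small heat shock gene Hsp26 had 2085, 953 and 174 CPM, and its neighbour Hsp23 had 3177, 1408 and 1068 CPM. The co-chaperone genes lay in the same order, with DnaJ-1 at 1326, 781 and 102 CPM and stv, the BAG-family gene, at 678, 375 and 48.5 CPM. Hsp83, the Hsp90 gene, which is also made without stress, had 7012, 6289 and 3433 CPM. Hsp27 had 2283, 1346 and 1408 CPM, a ratio of 1.696 that did not reach 2.

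The Hsp70 copies are near-identical, so the split of reads among them is uncertain. Hsp70Bb had 985, 353 and 24.5 CPM and Hsp70Bc 182, 59.2 and 0.0547 CPM. The low value of Hsp70Bc in replicate 3 is 1 count, which gives a ratio of 3318 with an exact 95% interval from 595 upward for counting error. Hsp70Bbb had 23.03, 12.5 and 0 CPM. The noncoding alphagamma-element:CR32865, the repeat element that lies among the Hsp70 copies, had 461, 63.8 and 2.35 CPM. The noncoding Hsromega had 179, 109 and 89.7 CPM. The constitutive cognate Hsc70-4, at 6443, 6104 and 4806 CPM, did not meet the rule. Hsp22 had 0 counts in every replicate, and the annotation used for lengths places it within Hsp67Bb, where counts cannot be assigned to either. Without replicate 3, 9 heat shock genes still differed between replicates 1 and 2.

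Some genes of the ecdysone response were low in replicate 2. Of 31 in the list 27 were tested and 10 differed, against 11.9% of all genes, with a median ratio of 1.43. Lowest in replicate 2 were 8 of the 10, against 296 of all 993 genes that differed. Blimp-1, a repressor that times pupal events (chromosome 3L, 5630983 to 5652094), had 113, 0.589 and 108 CPM. The nuclear receptor gene Hr4 had 192, 2.67 and 161 CPM, and Hr46, the gene of the receptor DHR3, had 38.2, 0.0907 and 19.1 CPM. In replicate 2 the count of Hr46 was 2, and the ratio of 421 has an exact 95% interval of 116 to 3482 for counting error. Replicates 1 and 3 were close to each other for Hr4 and Blimp-1.

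The 3 ImpE genes and Eip78C were also lowest in replicate 2. ImpE2, an apical secreted protein gene of the everting disc, had 2267, 462 and 2766 CPM, ImpE1 had 382, 90.4 and 403 CPM and ImpE3 had 84.7, 10.2 and 88.4 CPM. The nuclear receptor gene Eip78C had 47.5, 5.76 and 64.1 CPM. The other 2 genes that differed were lowest in replicate 3, among them ImpL1 at 15.1, 1.27 and 0.547 CPM. ImpL2, at 146, 141 and 114.9 CPM, and ImpL3, at 11.4, 18.6 and 16.2 CPM, did not meet the rule, nor did other genes of the hormone hierarchy. The receptor gene EcR had 328, 305 and 251 CPM and the gene of its partner, usp, had 91.6, 84.3 and 73.4 CPM. The early gene Eip74EF had 167, 144 and 174 CPM, Eip75B had 211, 177 and 256 CPM and the prepupal factor gene ftz-f1 had 52.4, 50.2 and 35.8 CPM. Without replicate 2, 3 ecdysone genes differed.

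Cuticle genes differed in 31 of 53 tested, against 11.9% of all genes, with a median ratio of 2.69, and split by replicate. The median level of the list was 5.57 CPM, and 32.6% of all genes from 1 to 10 CPM differed. Of the 31, 11 were lowest in replicate 2 and 17 highest in it, against 296 and 399 of all 993 genes that differed. Cpr49Ac was low there, at 212, 19.4 and 235 CPM. The larval cuticle gene Lcp2 was high there, at 7.995, 63.8 and 4.21 CPM, as were Lcp3 at 17.1, 91.02 and 2.24 CPM and Lcp4 at 14.03, 140.0 and 49.95 CPM. The chitin synthase gene kkv, at 399, 478 and 406 CPM, did not meet the rule. The count was 10 without replicate 2 and 20 without replicate 3.

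Genes of differentiated muscle were high in replicate 2. Of 19 tested 12 differed, with a median ratio of 4.05, and without replicate 2 none did. All 12 were highest in replicate 2, against 399 of all 993 genes that differed. The myosin light chain gene Mlc2 had 57.1, 301 and 34.9 CPM and Mlc1 had 13.1, 75.9 and 11.8 CPM. The actin gene Act57B had 82.5, 299 and 62.3 CPM, the troponin T gene up 22.7, 82.7 and 17.1 CPM and the tropomyosin gene Tm2 15.5, 65.3 and 11.9 CPM. The giant sarcomere gene sls, at 123, 148 and 128 CPM, and the myosin heavy chain gene Mhc, at 71.1, 80.4 and 42.5 CPM, did not meet the rule. Most myoblast genes did not meet the rule. The mesodermal factor gene twi had 22.6, 26.9 and 24.7 CPM, the FGF receptor gene htl 34.9, 33.95 and 35.6 CPM and zfh1 46.8, 42.6 and 45.8 CPM. Of 13 myoblast genes tested 1 differed, Nplp2, at 0.335, 2.54 and 2.95 CPM, which is near the 11.9% of all genes, and none did without replicate 1. The counts cannot tell fewer cells of a type from less RNA per cell, here or for the tissues below.

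Most of the genes known from other larval tissues that differed were lowest in replicate 1. Of 13 salivary gland genes 8 were tested and all 8 differed, against 11.9% of all genes, with a median ratio of 1479. The filter before testing keeps a gene with enough counts in the libraries of 1 replicate. Genes near 0 in replicate 1 thus entered through the replicates where they are high, and their calls partly follow from the filter. All 8 were lowest in replicate 1 and 7 were highest in replicate 3, against 273 and 389 of all 993 genes that differed. The glue gene Sgs3 (chromosome 3L, 11512221 to 11513402) had 1.01, 99.5 and 2649 CPM, and its neighbour Sgs7 had 1.197, 55.4 and 1249.9 CPM. Eig71Ee, which is expressed in the late salivary gland, had 0.479, 12.2 and 916 CPM. In replicate 3 the salivary gland list summed to 6341 CPM, against 270 in replicate 2 and 3.73 in replicate 1. The unnamed CG7587 had 0.0479, 13.3 and 727 CPM, with 1 count in replicate 1, a ratio of 15193 and an exact 95% lower limit of 2726 for counting error. It was the widest ratio of any gene of at least 10 CPM.

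Of 12 fat body genes 9 were tested and all 9 differed, against 11.9% of all genes, with a median ratio of 11.5. Of these 7 were lowest in replicate 1 and 7 highest in replicate 2, against 273 and 399 of all 993 genes that differed. Median levels of the fat body, haemocyte and gut lists were 11.8, 9.56 and 6.09 CPM. Over all genes, 32.6% of those from 1 to 10 CPM and 4.46% of those from 10 to 100 CPM differed. The storage protein gene Lsp1beta had 4.21, 52.4 and 23.9 CPM, while Fbp1, a fat body receptor gene for storage protein, had 2.298, 6.66 and 117 CPM and was highest in replicate 3. Of 16 haemocyte genes 14 were tested and 12 differed, with a median ratio of 5.35. Highest in replicate 3 were 11 of the 12, against 389 of all 993 genes that differed. The crystal cell enzyme gene PPO1 had 2.82, 25.9 and 40.3 CPM and PPO2 had 4.74, 31.9 and 51.4 CPM, and the plasmatocyte gene Hml had 7.47, 18.4 and 23.7 CPM. The haemocyte count was 5 without replicate 1 and 7 without replicate 3. The gut protease gene Jon65Aiv had 0.144, 0.0907 and 54.7 CPM and Jon65Aiii had 0.0479, 0.181 and 31.5 CPM. Of 24 gut genes only 4 were tested, all highest in replicate 3, and none differed without it. The gut list summed to 2.15, 3.13 and 97.9 CPM. These 4 genes passed the filter through replicate 3, so both points follow from that selection. In sum the haemocyte list ran from 225 to 355 CPM and the fat body list from 140 to 340 CPM.

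**Figure D4:**
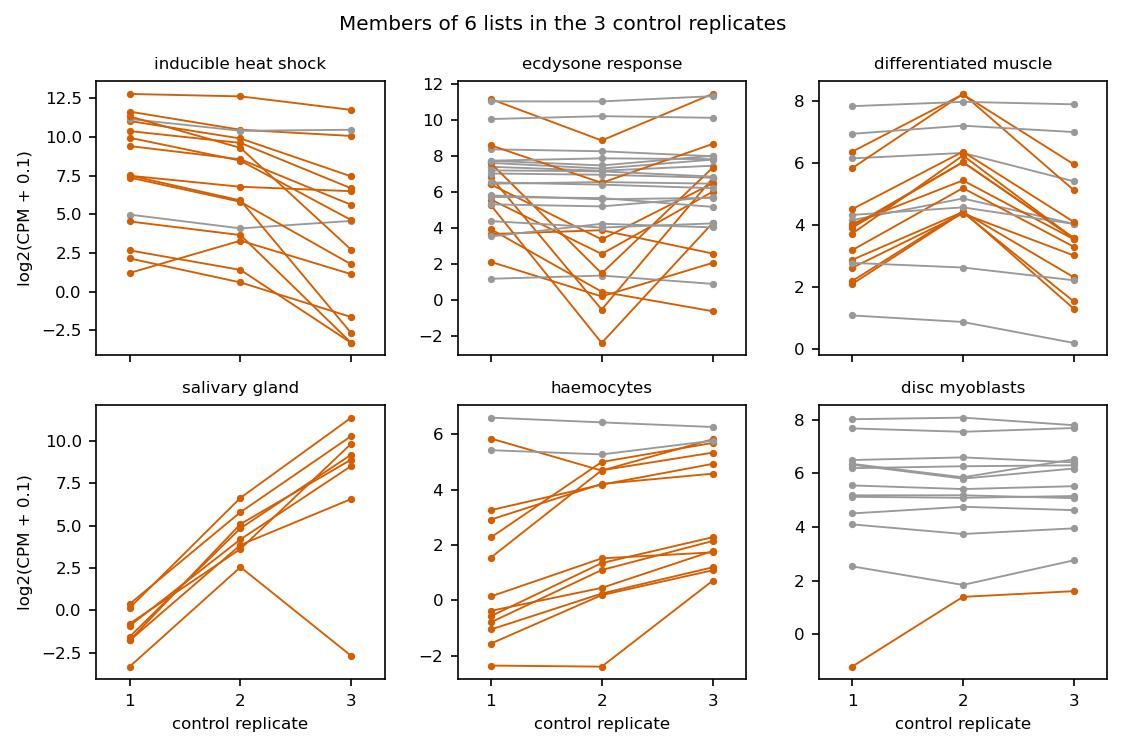
CPM of the tested members of 6 lists in the 3 control replicates, as log2(CPM + 0.1), with members that differed by the rule in orange and the others in grey; lines only join the values of a gene, since replicates have no order. Among genes that differ, heat shock genes lie lowest in replicate 3, ecdysone genes mostly lowest in replicate 2, muscle genes highest in replicate 2 and salivary gland genes lowest in replicate 1.

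Many transcription factors of low and middle level were lowest in replicate 2. Of 256 tested, 50 differed, which is 19.5% against 11.9% of all genes. Of the 50, 38 were lowest in replicate 2, against 296 of all 993 genes that differed. Of the 19 that had at least 10 CPM, 16 were lowest in replicate 2. The Hox gene Ubx, which specifies the haltere and the third thoracic segment, had 72.3, 18.6 and 55.6 CPM. Ubx is also on the list of peripodial and stalk genes of the wing disc. Scr, the Hox gene of the first thoracic segment, had 7.76, 1.45 and 7.22 CPM. Known leg disc factors, chosen after their values were seen, had 111, 29.7 and 70.03 CPM for Sp1, 53.4, 18.6 and 37.97 CPM for disco-r, 10.7, 1.86 and 11.2 CPM for H15 and 22.1, 7.93 and 24.6 CPM for mid. Antp, a thoracic Hox gene that leg discs also express, had 141, 146 and 120.3 CPM, did not meet the rule and was lowest in replicate 3. The leg gene dac had 117, 56.4 and 95.7 CPM, and Dll, which the wing margin also expresses, had 185, 104 and 159 CPM. Without replicate 2, 11 transcription factors differed. Whether tissue of other discs lay in the samples was not tested.

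**Figure D5:**
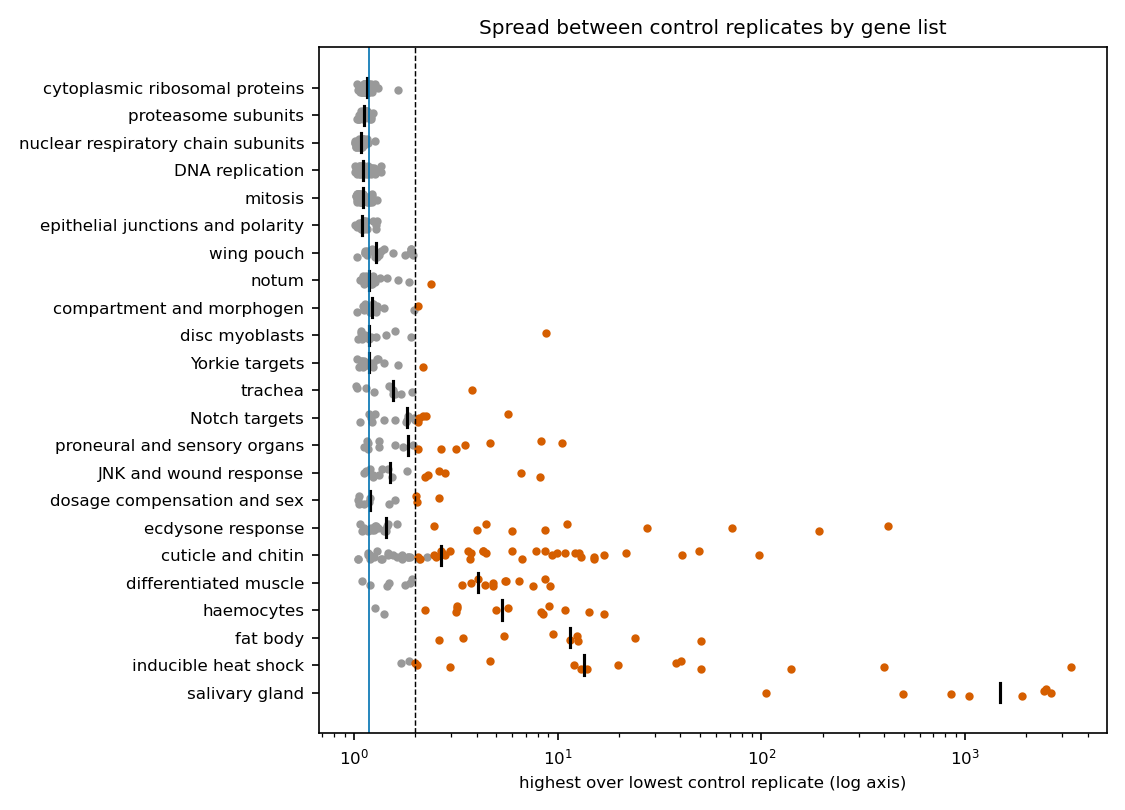
Ratio of highest to lowest control replicate for the tested members of 23 of the gene lists (the gut list, median 342 over 4 genes, is not drawn) on a log axis, with genes that differed by the rule in orange, the list median as a black bar, the median of all genes (1.19) as a blue line and a ratio of 2 dashed. The medians of the ribosomal, proteasome, respiratory, replication and mitosis lists lie between 1.08 and 1.15, and the salivary gland, heat shock, fat body, haemocyte and muscle lists have the highest medians of those drawn.

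Signalling readouts also held members that differed. Of 16 JNK and wound genes 6 differed, with a median ratio of 1.498, against 11.9% and 1.19 over all genes. The JNK feedback phosphatase gene puc had 63.2, 122 and 43.5 CPM, the Fos gene kay 159, 264 and 114 CPM and the Jun gene Jra 80.5, 119 and 45.6 CPM. Ets21C had 3.54, 13.96 and 1.696 CPM. These 4 were highest in replicate 2 and lowest in replicate 3. The other 2 that differed were Ilp8, at 0.287, 1.904 and 0.328 CPM, which was lowest in replicate 1, and Mmp2, at 57.4, 25.7 and 56.3 CPM, which was lowest in replicate 2. The metalloprotease gene Mmp1, at 118, 173 and 126 CPM, did not meet the rule. The count was 1 without replicate 2 and 3 without replicate 3.

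Of 17 Notch target genes 5 differed, and of 16 proneural and sensory organ genes 7 did, against 11.9% of all genes. Median levels of the lists were 26.6 and 11.2 CPM. Over all genes, 32.6% of those from 1 to 10 CPM and 4.46% of those from 10 to 100 CPM differed. The median ratios were 1.82 and 1.85. Every member that differed, Brd counted in both, was lowest in replicate 2, against 296 of all 993 genes that differed. The Bearded-family gene E(spl)malpha-BFM had 101, 44.97 and 89.4 CPM. The sensory organ precursor gene sens had 2.97, 0.997 and 8.26 CPM, while the proneural gene sc, at 24.1, 17.6 and 34.4 CPM, and ac, at 17.2, 15.5 and 20.5 CPM, did not meet the rule. Without replicate 2 the counts were 0 Notch targets and 1 proneural gene. The Notch count was 2 without replicate 1 and 3 without replicate 3, and the proneural count was 4 without replicate 3.

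The genes of X-chromosome dosage compensation that differed were lowest in replicate 1. The noncoding roX1 had 230.2, 415 and 599 CPM and roX2 had 13.2, 25.02 and 26.43 CPM. The gene msl-2, whose protein males make, had 33.1, 52.6 and 67.8 CPM. These 3 were the ones that differed of 11 tested, against 11.9% of all genes (3.28% lowest in replicate 1). None differed without replicate 1 or without replicate 3. The sex-determination gene Sxl had 386, 391 and 368 CPM, and X-linked genes together held 15.8% ± 0.0212 of counts. The labels give no sex for the larvae. The posterior compartment selector en had 53.3, 48.00 and 99.4 CPM. Thor, the translation repressor that ATF4 is known to induce, had 17.8, 14.5 and 74.1 CPM, and both were highest in replicate 3. The neighbour of en, inv, had 109.9, 88.3 and 84.9 CPM and did not meet the rule. Of 18 compartment and morphogen genes tested only en differed (5.56%, against 3.47% of genes of at least 10 CPM). None of them did without replicate 2 or without replicate 3.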

How the data were processed

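The 6 control libraries were read from 1 table of read counts per gene, whole numbers deposited by the authors without normalization, made with HTSeq per the submitters' processing notes. Its version, the aligner, build, annotation and strand setting were not given in the sources used here. Libraries a and b of a number were summed, after a chi-square comparison over genes with at least 10 counts. CPM were scaled with TMM. Exon lengths and coordinates came from Ensembl 115 on BDGP6, in which 17133 of the 17373 symbols were placed, and the authors' annotation may differ. Genes kept by filterByExpr (8335) were tested with edgeR 4.0.16 in R 4.3.3 over the 6 libraries, with replicate number as the factor, after a check on simulated counts with 200 genes changed. A gene differed at an adjusted p under 0.05 and a ratio of at least 2. Ratios with a lowest count of 10 or fewer carry exact 95% conditional intervals, and a replicate at 0 was set to 3 counts. Alternatives used limma 3.58.1 and DESeq2 1.42.0. Tables were made with Python 3.11.15.

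Shares were computed over 40 gene lists and 320 transcription factors, all chosen with earlier results of these data known, so lists are described by counts and medians without a test. Named genes were the 20 highest by CPM and per kilobase, the 25 highest factors by each, the 20 widest and 10 steadiest ratios at 10 CPM or more, up to 4 leading members by level and ratio in each list, and any member of the region, ecdysone, heat shock and cell type lists. The text names a part of these. The leg disc factors were chosen after their values were seen. Intervals cover counting error only.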

Additional observations from a re-analysis of the deposited data

How the results depend on the processing

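The 993 genes that differed became 5219 by the adjusted p alone (a setting added after seeing the data), 215 when tests were limited to a mean of at least 10 CPM, 461 at a ratio of at least 4, and 441 to 762 without 1 replicate. DESeq2 called 782 and limma-voom 990, and RLE size factors gave 992. Leaving out 1 replicate gave 9 to 13 heat shock genes, 0 to 12 muscle genes, 5 to 11 haemocyte genes, 3 to 10 ecdysone genes and 10 to 28 cuticle genes. Per kilobase of exons, shares became 25.5% for ribosomal proteins, 4.14% for translation factors, 8.27% for mitochondrial genome genes, 2.53% for the cytoskeleton, 1.73% for constitutive chaperones and 1.21% for nuclear respiratory subunits; 15 of 25 factors and 9 of 20 genes kept their place among the highest. Of 226 alternatives, 173 left the value within its limits and 53 moved it. No paired analysis was possible because 1 group was described and no groups were compared. With 3 replicates and a and b nearly identical, the test shows that samples differ and not how control discs vary in general, and genes under 1 CPM are limited by depth.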

Other observations

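Some genes of the tracheal list were among the more abundant cell type markers. The apical membrane gene uif had 868, 867 and 886 CPM and the chitin deacetylase gene verm had 924, 746 and 594 CPM. The tracheal factor gene trh had 109, 101 and 95.8 CPM, and dys, also on the list, had 22.9, 16.4 and 24.3 CPM. Of the 15 genes on the list 10 had a mean of at least 10 CPM and 2 had no count. The counts that follow stand beside 11.9% of all genes, 32.6% of genes from 1 to 10 CPM and 3.47% of those of at least 10 CPM. Of 11 tracheal genes tested 1 differed, tnc, at 457, 121 and 385 CPM and lowest in replicate 2. Among neuronal genes elav had 63.4, 70.5 and 70.96 CPM, and 3 of 10 differed, of which cac had 1.92, 6.07 and 4.65 CPM. Among glial genes 4 of 10 differed: the glial factor gene repo had 0.6703, 0.363 and 1.42 CPM and the glutamine synthetase gene Gs2 61.2, 92.2 and 33.5 CPM. Without 1 replicate the neuronal count was 0 to 2 and the glial count 1 to 4, with 0 neuronal genes without replicate 1 and 1 glial gene without replicate 2. Of the immune genes 3 were tested and 2 differed, PGRP-SB1 at 0.718, 1.81 and 0.492 CPM and CecC at 0, 1.04 and 0 CPM, and 0 did without replicate 2.

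In the lists of single calls, Ef1alpha100E, a second gene for elongation factor 1 alpha, had 47.4, 8.75 and 54.6 CPM and was the member of 34 translation factors that differed. Of 12 genes on the hinge list Lim1, at 22.5, 6.03 and 11.1 CPM, differed. So did abd-A, an abdominal Hox gene placed on that list, at 2.11, 3.58 and 1.37 CPM. The count for the hinge list was 1 whichever replicate was left out. Of 18 notum genes odd, at 12.97, 9.34 and 22.3 CPM, differed. Of 18 Yorkie targets Wnt2, at 45.9, 26.02 and 57.1 CPM, differed, and of 21 basement membrane genes Pxn, at 9.48, 18.04 and 30.4 CPM. Of 14 genes of the mitochondrial genome 3 differed, and mt:ND2 had 67.03, 161 and 155 CPM. Of 7 peripodial and stalk genes 3 differed, namely puc, Ubx and odd, with 0 without replicate 2 and 1 without replicate 3. Of 11 Minute and translation stress genes Thor, Ilp8 and GstE6 differed, and Ilp8, the relaxin-like signal of damaged discs, had 0.287, 1.904 and 0.328 CPM. That count was 1 without replicate 2 and 1 without replicate 3. The calls of odd, Wnt2 and tnc were lost without replicate 2, and those of odd and Wnt2 also without replicate 3.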
